A study of Mus musculus with 73 samples.

Results

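Chromosome conformation capture carbon copy (5C) libraries of mouse embryonic stem (ES) cells with the XiteC element of the X-inactivation centre inverted (XiteC-inv, 2 libraries) were set directly against libraries of cells with XiteC deleted (XiteC-del, 2 libraries). These 4 of the 73 samples of the series were taken by their titles, and all 4 carry the code B100 in their labels. Both genotypes are clones of E14Tg2a, a feeder-free male ES line of strain 129/Ola with a single X chromosome, edited with CRISPR plasmids or TALENs. The labels do not say which of these tools made which clone, or whether the replicates are separate clones. The p-values therefore measure only the spread between libraries, which may be technical. Wild-type (WT) libraries of the same line, replicate 1 with the code B100 and replicate 2 with the code B101, are given beside the values as a reference. No test compares them with the XiteC libraries. The edgeR fits held more than the 4 XiteC libraries. They also held XiteE-del replicates 1 and 2 (the XiteE element deleted), XiteE-inv replicate 1 (XiteE inverted) and WT replicate 1, all with the code B100. The XiteE-del pair thus shares in the estimate of the spread.

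The X-inactivation centre holds Xist, the RNA that silences an X chromosome in female cells, and Tsix, its antisense gene, which represses Xist in ES cells. Xite is a transcribed enhancer element upstream of Tsix that keeps Tsix active. Genes and their enhancers meet within topologically associating domains, stretches of chromosome whose fragments ligate more with each other than with fragments beyond a boundary. Many boundaries and loops form where cohesin stops at bound CTCF, and the orientation of a CTCF site is known to set the side on which it makes loops. The sources used here do not say whether XiteC holds such sites or what its letter C stands for. The comparison asks how contacts differ when the same element is turned around and when it is absent.

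5C counts ligation products between a forward and a reverse primer, each on 1 restriction fragment, so a pair of forward primers is never read. The assay held 511 forward and 528 reverse primers across X:98831149-103425147 (mm9) and 26 of each on chromosome 5. Totals were 21191816 and 17816295 counts in XiteC-del, 19646583 and 22156037 in XiteC-inv, and 16811959 and 16267499 in WT. Levels are given as CPM, counts scaled to a common library total. Counts between X and chromosome 5 made up 1.23% and 1.5% of XiteC-del, 1.6% and 1.2% of XiteC-inv, 1.71% of WT replicate 1 and 0.282% of WT replicate 2. Of the X counts, 17.2% and 19.4% in XiteC-del and 20.7% and 17.9% in XiteC-inv joined fragments over 1 Mb apart, against 21.2% in WT replicate 1 and 9.23% in WT replicate 2. The XiteC groups overlapped in each of these shares, while WT replicate 2 stood apart from all of them.

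The deletion removed the contacts of a small stretch of fragments, and the inversion kept them. By the rule that a deleted primer falls under 10% of its WT level in both XiteC-del libraries, primer FOR_577 (X:100636563-100639613) marked the edited interval. Its total was 75.6 and 84.4 CPM in XiteC-del, 1928 and 2077 CPM in XiteC-inv, and 2177 and 2498 CPM in WT. With partners within 300 kb it kept 10.9 and 15.6 CPM in XiteC-del, which is 0.684% of the WT mean. By edgeR the log2 fold change was 4.65 (adjusted p = 1.8e-11, SE 0.08), and the 2 XiteC-inv libraries lay far above both XiteC-del libraries. FOR_577 was picked by its low counts in these same XiteC-del libraries, so the outcome of this test was set in advance.

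The neighbouring primer REV_576 (X:100633846-100636562) also belonged to the deleted stretch when its near partners were counted, a reading chosen after its values were seen. Its counts with partners within 300 kb were 39.9 and 46.6 CPM in XiteC-del, 1627 and 1709 CPM in XiteC-inv, and 1631 and 2173 CPM in WT. Its total fell less, to 1639 and 1793 CPM in XiteC-del against 4476 and 4253 CPM in XiteC-inv (log2 fold change 1.35, SE 0.08, adjusted p = 4.89e-06, edgeR). Most of the XiteC-del total came from 2 pairs: FOR_748, which is 522 kb to the right, gave 970.0 and 984 CPM, and FOR_714, which is 446 kb to the right, gave 449.6 and 543 CPM. In XiteC-inv they gave 1307 and 1103 CPM for FOR_748, above both XiteC-del libraries, and 716 and 539 CPM for FOR_714, overlapping XiteC-del. Their log2 fold changes were 0.30 and 0.34, and neither was called by edgeR. The 2 pairs were also high in WT replicate 1 (946 and 591 CPM), and low in WT replicate 2 (111 and 31.3 CPM). Their source was not tested, and the counts of bin pairs and the named pairs of the bin that holds both fragments are therefore also given without FOR_577 and REV_576. Together the 2 fragments span X:100633846-100639613, 5768 bp. The breakpoints themselves are not read by 5C.

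Of the 1084 primers tested, these 2 were the ones whose totals differed (0.185%, both higher in XiteC-inv). Both had been picked by their loss in the XiteC-del libraries, so their calls add no support for that loss. The next primers did not pass the test. Their log2 fold changes were 0.06 for REV_574, 0.03 for FOR_575, 0.08 for REV_578, 0.26 for FOR_579 and 0.07 for REV_580, with adjusted p from 0.925 to 0.992 (edgeR). The sign for REV_574 turned with FOR_577 left out, and that for FOR_575 turned with FOR_577 and REV_576 left out, without XiteC-inv replicate 2, and without XiteC-del replicate 2. With both lost primers left out no primer was called by edgeR, and 39 had an unadjusted p under 0.05. The fit of all 10 libraries, which adds the B101 libraries, called FOR_577 alone.

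**Figure D1:**
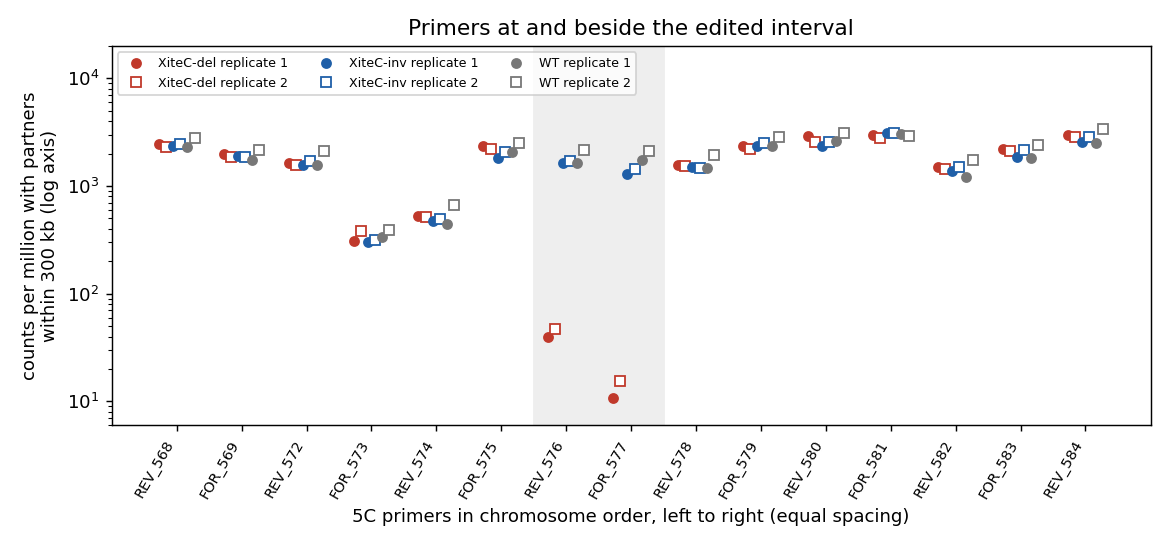
CPM with partners within 300 kb (log axis) for primers in chromosome order, 1 point per library, with XiteC-del red, XiteC-inv blue and WT grey. In the shaded pair REV_576 and FOR_577 the XiteC-del points lie between 10.9 and 46.6 and the XiteC-inv points between 1286 and 1709, while at the other primers the 3 genotypes overlap or nearly so.

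Single primer pairs that join fragments just left and just right of the interval were higher in the deletion. FOR_575, left of the deleted stretch, with REV_578, right of it, gave 381 and 329 CPM in XiteC-del, 99.1 and 125 CPM in XiteC-inv, and 91.7 and 111 CPM in WT. The log2 fold change was -1.66 (SE 0.22, adjusted p = 1.2e-08, edgeR). XiteE-del, the other genotype with 2 libraries in this fit, gave 0.213 and 0.209 CPM for this pair. It had lost most counts of FOR_575, with totals of 64.5 and 39.1 CPM against 2562 and 3052 CPM in WT. Such low counts enter the estimate of the spread for pairs of FOR_575. XiteC-inv replicate 1 lay between the WT libraries and replicate 2 above both. FOR_575 with REV_580 gave 456 and 443 CPM in XiteC-del, 147 and 183 CPM in XiteC-inv, and 114 and 144 CPM in WT (log2 fold change -1.44, SE 0.20, adjusted p = 8.5e-08). A deletion shortens the distance between these fragments along the chromosome, and the part of that shortening in the difference was not tested. In the same test 123 of 157910 primer pairs passed (0.0779%), 108 higher (0.0684%) and 15 lower (0.0095%) in XiteC-inv. Of them 104 held FOR_577 or REV_576, all higher, as these are the fragments lost in XiteC-del. Of the other 19 pairs 4 were higher and 15 lower, and all 15 lower pairs joined a fragment left of the interval to one right of it. How many of all tested pairs join the 2 sides in this way is not given here. This count by single pairs was added after the data were seen, and in a fit of the 4 XiteC libraries alone it was 73, with 68 higher and 5 lower.

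Beyond 50 kb, the inverted element had fewer contacts to the left, towards lower coordinates, and more to the right than in WT. With partners 50 to 600 kb to the left FOR_577 gave 234 and 297 CPM in XiteC-inv and 543 and 700.0 CPM in WT. With partners 50 to 600 kb to the right it gave 570.4 and 578 CPM in XiteC-inv and 198 and 251 CPM in WT. Both XiteC-inv libraries were below both WT libraries on the left and above them on the right, which was so for 17 of 994 X primers (1.71%) read at these distances from their own position. With 2 libraries a side no exact test of these sums can pass (smallest p 0.333). Within 50 kb the pairs of FOR_577 and REV_576 were mixed, a count added after the data were seen over pairs with a WT mean of at least 20 CPM, a choice that favours pairs high in WT. Of 12 such pairs on the left 6 were lower in both XiteC-inv libraries than in either WT library, 2 were higher and 4 overlapped. Of 7 on the right 2 were lower, 2 were higher and 3 overlapped. FOR_577 with REV_574 on the left gave 58.9 and 43.1 CPM in XiteC-inv and 25.04 and 29.1 CPM in WT, while FOR_577 with REV_580 on the right gave 131 and 150.2 CPM in XiteC-inv and 300.1 and 312 CPM in WT. Both of these pairs ran against the direction seen beyond 50 kb. Sides and distances are those of mm9, and an inversion changes the distances of its fragments to close neighbours. The part of that change in these pairs was not tested. The left share of the counts within 300 kb was 32.2% and 36.8% for REV_576 in XiteC-inv, against 65.2% and 66.8% in WT, and 40.0% and 41.2% for FOR_577 in XiteC-inv, against 49.2% and 49.1% in WT. For both primers the share was lower in XiteC-inv.

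The bin with the edited interval was the centre of the differences between inversion and deletion at 30 kb resolution. Counts of all primer pairs between 2 bins were added up, and 23 of 11631 bin pairs passed the test (0.198%), 17 higher in XiteC-inv (0.146%) and 6 lower (0.052%). All 17 higher pairs joined the bin X:100631149-100661148, which holds the interval, to bins on its right. All 6 lower pairs joined a bin on its left to that bin or to the next bin on the right. No pair outside these 2 bins passed. Without FOR_577 and REV_576 the count was 16, all of them among the 23, with 10 higher and 6 lower. Scaling by TMM gave 17 higher and 3 lower. Leaving out 1 library left 9 pairs without XiteC-inv replicate 1, 8 without XiteC-inv replicate 2, 9 without XiteC-del replicate 1 and 5 without XiteC-del replicate 2, and the 23 pairs kept their direction each time.

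To the right, contacts of the element bin were higher in XiteC-inv, with calls out to 630 kb, and out to 570 kb without FOR_577 and REV_576. With X:101171149-101201148, 540 kb to the right, it gave 226 and 187 CPM in XiteC-del, 515 and 619 CPM in XiteC-inv, and 189 and 242 CPM in WT. This is 2.74-fold higher in XiteC-inv (log2 fold change 1.46, SE 0.15, adjusted p = 0.000508, edgeR), and XiteC-del lay at the level of WT. With X:100841149-100871148, 210 kb to the right, the bin gave 210.1 and 213 CPM in XiteC-del, 531 and 464 CPM in XiteC-inv, and 219 and 280.5 CPM in WT (log2 fold change 1.23, SE 0.13, adjusted p = 0.000508). With X:101021149-101051148, 390 kb to the right, it gave 237 and 237 CPM in XiteC-del, 535 and 547 CPM in XiteC-inv, and 235 and 219 CPM in WT (log2 fold change 1.19, SE 0.13, adjusted p = 0.000508). In these 3 pairs both XiteC-inv libraries stood above the 4 others. Without FOR_577 and REV_576 the log2 fold changes were 1.18 at 540 kb, 0.90 at 210 kb and 0.97 at 390 kb, and all 3 kept the call.

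The largest ratio among the called pairs was at 570 kb. With X:101201149-101231148, at this distance, the levels were 90.8 and 68.6 CPM in XiteC-del, 223 and 231 CPM in XiteC-inv, and 104 and 105 CPM in WT, a 2.85-fold difference (SE of the log2 value 0.20, adjusted p = 0.00281, edgeR). With X:100871149-100901148, 240 kb to the right, they were 188 and 157 CPM in XiteC-del, 463 and 465 CPM in XiteC-inv, and 228 and 222 CPM in WT, a 2.69-fold difference (SE of the log2 value 0.16, adjusted p = 0.00069, edgeR). Without the 2 lost primers the log2 fold changes were 1.29 at 570 kb and 1.18 at 240 kb, and both kept the call. The other 5 higher pairs named by rule, at 60, 120, 180, 360 and 480 kb, were 1.93-fold to 2.18-fold higher in XiteC-inv. The groups did not overlap in them, which the rule for naming pairs requires. Without the lost primers their log2 fold changes were 0.68, 0.83, 0.80, 0.86 and 0.97 in that order, and the pair at 60 kb was no longer called (adjusted p = 0.141, edgeR). In all, 7 of the 17 higher pairs lost the call without these primers, among them the farthest, at 630 kb (log2 fold change 0.70, adjusted p = 0.63).

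All 22 bins tested from 30 to 660 kb to the right had higher contacts with the element bin in both XiteC-inv libraries than in either XiteC-del library, against 13.1% of all bin pairs. Their median log2 fold change was 1.00, against -0.04 over all pairs, and 0.79 with FOR_577 and REV_576 left out. The sums hold these 2 primers, picked by their loss in XiteC-del, so the count of 22 was partly set in advance. Without them the log2 fold changes stayed above 0, from 0.21 to 1.29, and 10 of the 22 pairs were called. Whether the groups overlapped without them is not given here. Set beside WT replicate 1, the library of the same code, the median log2 ratio of these 22 pairs was -0.07 for XiteC-del and 0.92 for XiteC-inv. Both ratios keep the 2 lost primers. The bin pair at 420 kb, which holds FOR_714, read 601 and 707 CPM in XiteC-del and 995 and 762 CPM in XiteC-inv and was not called (adjusted p = 0.711). The pair at 510 kb, which holds FOR_748, read 1237 and 1248 CPM against 1768 and 1680 CPM (log2 fold change 0.47), and 0.87 without the 2 lost primers. From 690 to 1200 kb none of 18 bins was called by edgeR, 8 had an unadjusted p under 0.05 and DESeq2 called 1, and the log2 fold change was above 0 in all 18, with a median of 0.50.

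**Figure D2:**
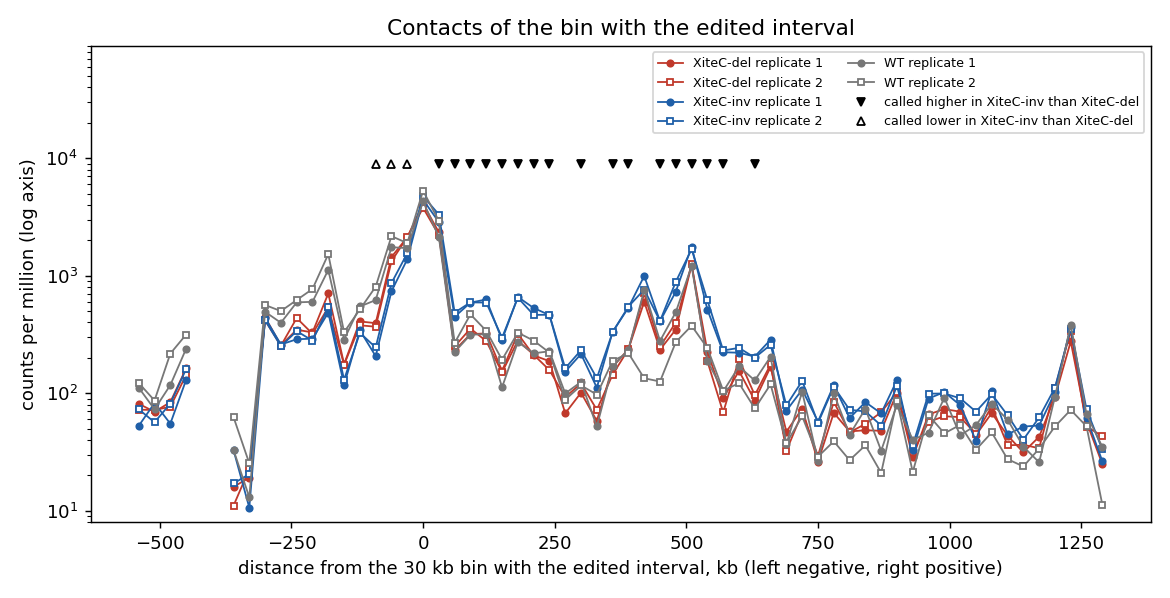
CPM (log axis) between the bin with the edited interval and bins at each distance in kb, 1 line per library, with triangles over the pairs that passed the test. The blue XiteC-inv lines run above the red XiteC-del lines from 30 to 660 kb on the right and above the grey WT lines in 21 of these 22 bins, all but the one at 30 kb, and below the WT lines on the near left.

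On the near left, contacts of the element bin were lower in the inversion than in the deletion. Of 10 bins within 300 kb to the left, 7 were lower in both XiteC-inv libraries than in either XiteC-del library (20.3% of all bin pairs), 3 were called lower, and the median log2 fold change was -0.30, or -0.56 without FOR_577 and REV_576. From 330 to 660 kb none of 6 bins was lower in this way and 1 was higher. The element bin with X:100571149-100601148, 60 kb to the left, gave 1443 and 1328 CPM in XiteC-del, 737 and 866 CPM in XiteC-inv, and 1747 and 2169 CPM in WT. The log2 fold change was -0.79 (SE 0.09, adjusted p = 0.000843, edgeR), and both genotypes lay under WT. With X:100541149-100571148 the element bin gave 395 and 368 CPM in XiteC-del, 207 and 245 CPM in XiteC-inv, and 619.9 and 806 CPM in WT (log2 fold change -0.76, SE 0.13, adjusted p = 0.0173). With its left neighbour X:100601149-100631148 it gave 2122 and 2128 CPM in XiteC-del, 1379 and 1552 CPM in XiteC-inv, and 1716 and 1892 CPM in WT (log2 fold change -0.54, SE 0.09, adjusted p = 0.0163). Here WT lay between the 2 edited genotypes. Without the lost primers the log2 fold changes of these 3 pairs were -1.09, -1.001 and -0.84, and all 3 kept the call.

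The bin just right of the element showed a different order, with XiteC-del above both WT libraries in the 3 pairs called lower. X:100661149-100691148 with X:100571149-100601148 gave 782 and 781 CPM in XiteC-del, 286 and 363 CPM in XiteC-inv, and 317 and 399.8 CPM in WT. This is 2.41-fold lower in XiteC-inv (log2 fold change -1.27, SE 0.13, adjusted p = 0.000508, edgeR), and neither bin holds a deleted fragment. With X:100451149-100481148 the same bin gave 455 and 399 CPM in XiteC-del, 206 and 246 CPM in XiteC-inv, and 279 and 362 CPM in WT (log2 fold change -0.92, SE 0.15, adjusted p = 0.0109). With X:100601149-100631148 it gave 721 and 677 CPM in XiteC-del, 397 and 466 CPM in XiteC-inv, and 269.5 and 382 CPM in WT (log2 fold change -0.70, SE 0.12, adjusted p = 0.0245). XiteC-inv overlapped WT with X:100571149-100601148. It lay below both WT libraries with X:100451149-100481148 and above both with X:100601149-100631148. Over the 10 bins within 300 kb to the left, contacts with this bin were lower in both XiteC-inv libraries than in either XiteC-del library for all 10, against 20.3% of all bin pairs, with a median log2 fold change of -0.70. Beside WT replicate 1 the median log2 ratio of these 10 pairs was 0.62 for XiteC-del and -0.17 for XiteC-inv.

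**Figure D3:**
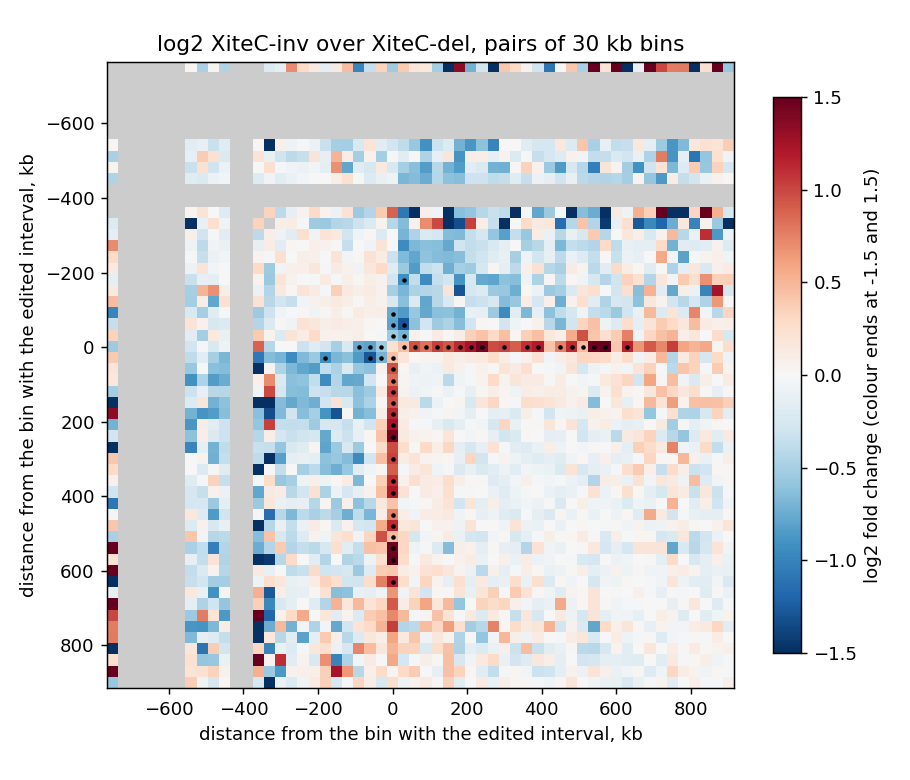
log2 of XiteC-inv over XiteC-del for each pair of 30 kb bins, plotted by distance in kb from the bin with the edited interval on both axes, with dots on pairs that passed the test and grey where no pair was tested. A red stripe runs to the right from the element bin to about 630 kb, and blue covers most pairs that span it, with 85 of 90 pairs below 0 between left bins at 60 to 300 kb and right bins up to 300 kb. The left neighbour bin differs, with 8 of its 10 pairs with these right bins above 0, and the blocks on each side are paler.

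Contacts across the interval were lower in the inversion than in the deletion, and contacts within each flank overlapped. Pairs with 1 primer within 300 kb to the left and the other within 300 kb to the right, without FOR_577, summed to 18059 and 17342 CPM in XiteC-del, 12646 and 13431 CPM in XiteC-inv, and 13115 and 15640 CPM in WT. The mean was 17700 ± 507 CPM (SD, n = 2) in XiteC-del and 13039 ± 555 CPM (SD, n = 2) in XiteC-inv, a log2 ratio of -0.44 (exact permutation test, two-sided, p = 0.333, the smallest p that 2 against 2 allows). Both XiteC-inv libraries lay under both XiteC-del libraries, and the log2 ratio was -0.55 without REV_576 as well. Within the left flank the sums were 41363 and 38971 CPM in XiteC-del and 40238 and 43613 CPM in XiteC-inv, with a log2 ratio of 0.06 (exact permutation p = 0.667). Within the right flank they were 40236 and 37582 CPM in XiteC-del and 41250 and 39702 CPM in XiteC-inv, with a log2 ratio of 0.06 (exact permutation p = 0.667). The groups overlapped in both flanks.

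The difference across the interval varied with where the partners lay. With FOR_577 and REV_576 left out, pairs of the first 50 kb on each side gave 4694 and 4518 CPM in XiteC-del, 2030 and 2510 CPM in XiteC-inv, and 2346 and 2658 CPM in WT, a log2 ratio of -1.02. Pairs of the first 50 kb on the right with 50 to 150 kb on the left gave 2140 and 2003 CPM in XiteC-del, 1084 and 1105 CPM in XiteC-inv, and 1854 and 2128 CPM in WT, a log2 ratio of -0.92. The mirror pairs, with the first 50 kb on the left and 50 to 150 kb on the right, gave 1116 and 1007 CPM in XiteC-del, 1069 and 1094 CPM in XiteC-inv, and 560.1 and 737 CPM in WT, a log2 ratio of 0.03. The groups overlapped only in that combination out of 9. For the first 50 kb on the left with 150 to 300 kb on the right XiteC-inv was the higher genotype, at 1100.0 and 1235 CPM against 1022 and 963 CPM in XiteC-del and 500.3 and 726 CPM in WT (log2 ratio 0.23). In the other 7 combinations XiteC-inv was lower, with log2 ratios from -1.02 to -0.28, each with an exact permutation p of 0.333.

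Fragments beside the deleted stretch showed the same turn from left to right without being deleted. The bin X:100631149-100661148 holds 8 primers besides FOR_577 and REV_576. Their contacts with partners 50 to 600 kb to the right summed to 3658 and 3619 CPM in XiteC-del, 6379 and 6677 CPM in XiteC-inv, and 3456 and 3516 CPM in WT, 1.79-fold higher in XiteC-inv than in XiteC-del. Their contacts 50 to 600 kb to the left summed to 4110 and 3817 CPM in XiteC-del, 2749 and 2788 CPM in XiteC-inv, and 4967 and 6020 CPM in WT, 1.43-fold lower in XiteC-inv. For all 8 primers both XiteC-inv libraries lay above both XiteC-del libraries on the right and below them on the left (exact permutation p = 0.333 for each sum). Read at these distances from their own position, 9.15% of 994 X primers lay above on the right, 27.7% below on the left and 2.92% did both. REV_578, the closest fragment on the right, gave 140.3 and 167 CPM to the right in XiteC-del, 492 and 485 CPM in XiteC-inv, and 152 and 204 CPM in WT. FOR_575, the closest on the left, gave 287 and 265 CPM to the right in XiteC-del, 796 and 879.7 CPM in XiteC-inv, and 212 and 274 CPM in WT. At both fragments XiteC-inv was high and the other genotypes overlapped.

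The left share of each primer is the percentage of its counts within 300 kb that go to the left. Close to the interval its difference between XiteC-inv and XiteC-del mostly had opposite signs on the 2 sides. The share was read without FOR_577 and REV_576 as partners. REV_578 sent 50.2% and 47.6% to the left in XiteC-del, 20.9% and 23.5% in XiteC-inv, and 47.7% and 42.2% in WT. REV_580 sent 66.5% and 67.3% to the left in XiteC-del, 46.8% and 46.2% in XiteC-inv, and 65.8% and 64.3% in WT. XiteC-del lay at the level of WT for both. Of the 13 primers within 30 kb to the right, 12 had a lower mean left share in XiteC-inv than in XiteC-del, with a median difference of -8.89 percentage points and a range from -26.7 to 1.32. All 22 primers within 60 kb to the left had a higher one, with a median difference of 4.24 and a range from 2.03 to 13.5. These windows differ in width between the sides, and farther out the signs were mixed. From 30 to 300 kb to the right 37 of 65 primers were above 0 and 28 below (median 0.49). From 60 to 300 kb to the left 34 of 52 were above 0 and 18 below (median 0.79). Over the 1016 X primers with at least 1000 such counts in each XiteC library the median difference was 0.11, with 484 below 0. The level of FOR_575 stood apart from WT in both genotypes: it sent 42.0% and 43.9% to the left in XiteC-del and 45.3% and 44.7% in XiteC-inv, against 74.1% and 73.0% in WT.

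**Figure D4:**
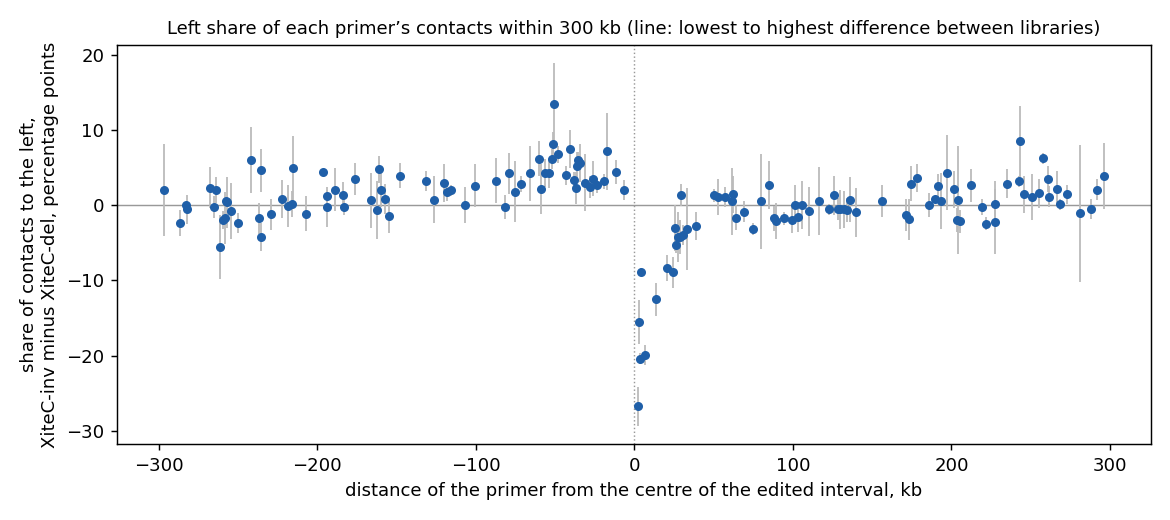
Difference in left share between XiteC-inv and XiteC-del in percentage points (points, difference of means, and lines, lowest to highest difference between libraries) by distance of the primer from the interval in kb. The points fall to -26.7 just right of the interval, lie around 0 beyond 60 kb on the right, and lie above 0 within 60 kb on the left.

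Counts that cross each boundary between neighbouring 30 kb bins, with both primers within 300 kb and FOR_577 left out, were used as a measure of insulation, where fewer crossing counts mean stronger separation. Of 152 boundaries 22 passed the test (14.5%), 5 higher in XiteC-inv (3.29%) and 17 lower (11.2%). Neighbouring boundaries share most of their primer pairs, so these counts are of runs rather than of separate positions. The spread was also estimated over all boundaries together. The adjusted p-values of boundaries may therefore be smaller than 2 libraries a side can bear out. The split depended on the scaling, with 8 higher and 3 lower by TMM and 16 higher and 10 lower by DESeq2. It also depended on single libraries, with 11 calls without XiteC-inv replicate 1, 56 without XiteC-inv replicate 2, 2 without XiteC-del replicate 1 and 3 without XiteC-del replicate 2.

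The largest difference was at X:100631149, the boundary just left of the interval. Crossing counts there were 17656 and 17018 CPM in XiteC-del, 11731 and 12557 CPM in XiteC-inv, and 14267 and 17122 CPM in WT. The log2 fold change was -0.51 (SE 0.04, adjusted p = 8.34e-27, edgeR), and it passed the test under all 16 alternatives, from -0.67 to -0.35. The boundary at X:100601149 followed with a log2 fold change at -0.36 (SE 0.04, adjusted p = 1.79e-13), with 18179 and 17468 CPM in XiteC-del and 13514 and 14216 CPM in XiteC-inv, and was lost only in the fit of all 10 libraries. At X:100571149 it was -0.20 (SE 0.04, adjusted p = 0.000166), lost under 4 of 16 alternatives. These belong to a run of 6 lower boundaries from X:100481149 to X:100631149. The boundary just right of the interval, X:100661149, gave 15230.0 and 14788 CPM in XiteC-del, 14105 and 15018 CPM in XiteC-inv, and 10711 and 13270 CPM in WT. There the groups overlapped (log2 fold change -0.04, adjusted p = 0.439), and the sign turned under TMM scaling, DESeq2, a window of 150 kb, a window of 600 kb and without XiteC-inv replicate 1.

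The place with the fewest crossing counts near the interval differed between the genotypes. Among the 10 boundaries within 150 kb of the interval, the lowest in both XiteC-del libraries and in both WT libraries was X:100691149, with 13391 and 13177 CPM in XiteC-del and 10008 and 12713 CPM in WT. In both XiteC-inv libraries the lowest was X:100631149, and X:100691149 read 13847 and 13824 CPM. The positions were the same without REV_576 and with a window of 150 kb. With a window of 600 kb the lowest position was X:100511149 in all 4 XiteC libraries. This search was added after the data were seen and was not tested.

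Farther right, 5 boundaries from X:100781149 to X:100901149 had more crossing counts in XiteC-inv, with log2 fold changes from 0.16 to 0.20. These sums still hold REV_576, which is lost in XiteC-del. With REV_576 left out as well the log2 fold changes were 0.13 to 0.17, and X:100901149 was no longer called (adjusted p = 0.0898, edgeR). At X:100871149 the counts were 23762 and 23481 CPM in XiteC-del, 26221 and 27949 CPM in XiteC-inv, and 22196 and 21558 CPM in WT (log2 fold change 0.20, SE 0.06, adjusted p = 0.00915, edgeR). XiteC-inv was the highest of the 3 genotypes there. All 5 lost the call without either XiteC-del library, and at X:100841149 the sign turned with a window of 150 kb. A run of 10 boundaries from X:102581149 to X:102851149, about 2 Mb from the interval, was lower in XiteC-inv, with log2 fold changes from -0.17 to -0.12. At X:102701149 the counts were 10728 and 10535 CPM in XiteC-del, 9342 and 9541 CPM in XiteC-inv, and 9600.0 and 12114 CPM in WT (adjusted p = 0.00294). The value was no longer called with TMM scaling or without either XiteC-del library, and neither was the single lower boundary at X:99821149 (log2 fold change -0.17, adjusted p = 0.00766). The median over all 152 boundaries was itself below 0, at -0.06, and 0.01 with TMM scaling.

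**Figure D5:**
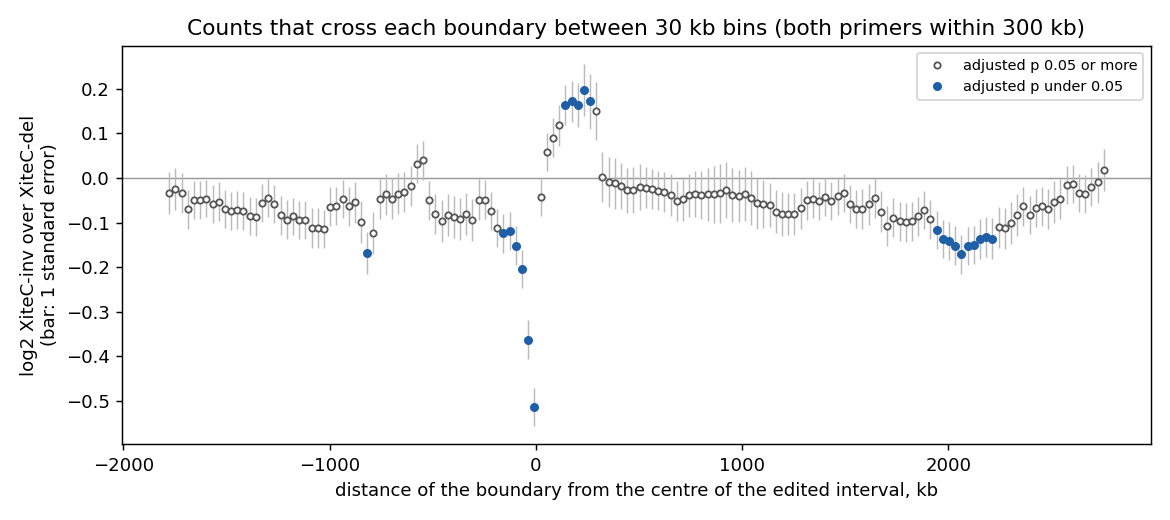
log2 fold change between XiteC-inv and XiteC-del of the counts that cross each boundary (points, with 1 standard error as a line) by distance from the interval in kb, filled where the adjusted p is under 0.05. The lowest point, -0.51, stands just left of the interval, and the 5 filled points above 0 lie between 143 and 263 kb to its right.

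Among single primer pairs outside the deleted stretch, the 15 lower ones all spanned the interval. The share of all tested pairs that span it is not given here. REV_580, 3.53 kb right of FOR_577, was a partner in 7 of them, with fragments from FOR_546 to FOR_575. With FOR_563 it gave 75.0 and 82.2 CPM in XiteC-del, 24.2 and 22.8 CPM in XiteC-inv, and 55.3 and 52.1 CPM in WT (log2 fold change -1.74, SE 0.29, adjusted p = 4.59e-05, edgeR). With FOR_546 it gave 39.9 and 22.8 CPM in XiteC-del, 0.102 and 8.85 CPM in XiteC-inv, and 63.8 and 64.2 CPM in WT (log2 fold change -2.80, SE 0.50, adjusted p = 0.000286). In the other direction, REV_580 with FOR_758, 543 kb to the right, gave 7.27 and 9.94 CPM in XiteC-del, 35.3 and 50.9 CPM in XiteC-inv, and 10.2 and 10.2 CPM in WT (log2 fold change 2.32, SE 0.48, adjusted p = 0.00561). FOR_575 with REV_730, 486 kb to the right, gave 1.46 and 0.0561 CPM in XiteC-del, 24.5 and 16.4 CPM in XiteC-inv, and 6.07 and 4.55 CPM in WT (adjusted p = 0.0031). The same fragment, REV_580, was thus lower with the left and higher with the right in XiteC-inv.

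Away from the element no bin pair was called by edgeR. None of the 11326 tested pairs that hold neither the element bin nor the next bin on the right passed, 288 of them had an unadjusted p under 0.05, and DESeq2 called 16. The 55 pairs within the left 300 kb lay at a median of 0.06 (log2 fold change), and the 55 within the right 300 kb at 0.02. The 100 pairs between these flanks, without the element bin, had a median of -0.45, with 87 below 0 and 3 called lower. Of the X counts, 37.2% and 35.4% in XiteC-del and 35.6% and 37.3% in XiteC-inv joined fragments under 50 kb apart (exact permutation p = 0.667). The share from 200 to 500 kb was 14.99% and 14.81% in XiteC-del and 14.14% and 14.78% in XiteC-inv, with no overlap (exact permutation p = 0.333). The groups overlapped in the other 4 of the 5 distance classes. In RefSeq's gene order (assembly GRCm38.p6, used for order alone) Cdx4, Chic1 and Tsx precede Tsix, Xist, Jpx and Ftx. The bins were not assigned to genes, because no annotation of mm9 was used here.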

How the data were processed

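5C libraries of mouse ES cells were analysed from raw counts per pair of forward and reverse primers, deposited as whole numbers by the authors. The submitters' processing notes name the aligner Bowtie2 and the build mm9; the sources used here give no filters. Fragment positions come from the deposited primer lists. Sums were taken for each pair of 30 kb bins, for each primer and across bin boundaries (both primers within 300 kb), and tested with edgeR 4.0.16 in R 4.3.3: quasi-likelihood F test, library total as offset, mean count of at least 10 (bin pairs, primer pairs) or 100 (primers), Benjamini-Hochberg over all features, threshold 0.05. The fit held the 8 libraries with the code B100, with 1 mean per genotype and 3 residual degrees of freedom. Summed levels were compared by exact permutation tests. On simulated bin pairs, tested with 200 changed, 16% of the 2-fold changes and 64% of the 4-fold ones were called, beside 6 false calls. Alternatives were other library sets, TMM scaling, DESeq2 1.42.0, a replicate block, other filters, bin sizes, windows and offsets, and leaving out each library. Named were up to 10 called bin pairs, 5 primers and 5 boundaries per direction with the smallest adjusted p and no overlap, the interval's primers and their neighbours. The members, lists and tests were chosen with earlier results of these data known. The other 63 samples of the series, of other assays, other edits and further wild-type 5C libraries, were not analysed here. Intervals on the genome carry no sequence here, since no mm9 genome was used.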

Additional observations from a re-analysis of the deposited data

How the results depend on the processing

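Counts of calls depended on the libraries in the fit, while the 16 named bin pairs kept their sign under the 15 alternatives that leave the bins as they are. The fit of all 10 libraries, including the B101 libraries, called 0 bin pairs by edgeR (87 with an unadjusted p under 0.05), 1 primer and 1 boundary, while the same libraries with the code as a covariate called 23 bin pairs and 6 boundaries. DESeq2 called 49 bin pairs, 37 higher and 12 lower with all 23 among them, and 10 primers. Bins of 60 kb gave 8 calls. Leaving out 1 library gave 5 to 9 bin pairs and 2 to 56 boundaries, and a lone library is then assumed to vary like the other groups. TMM scaling gave 11 boundaries, a window of 150 kb 2 and a window of 600 kb 47. With the primer of the interval left out 1 primer was called, and 0 with REV_576 left out too. A fit with the replicate block called 23 bin pairs, 21 of them shared, but 2 boundaries. The numbers share nothing but a label in the sources: over 11603 bin pairs the deviations of the first replicates from their group means correlated at -0.05. Single primer pairs gave 73 calls in the fit of the 4 XiteC libraries alone. The sign turned for REV_574 (-0.052 without the interval's primer and -0.052 without both lost primers), for FOR_575 (-0.091 without both lost primers, and -0.072 to 0.13 over leaving out each library), for the boundary X:100841149 (-0.012 at 150 kb) and for X:100661149 (0.020 with TMM, 0.017 with DESeq2, 0.038 at 150 kb, 0.035 at 600 kb, and -0.090 to 0.000838 over leaving out each library), none of them called in those settings. The causes were not tested. With 16% of simulated 2-fold changes recovered, pairs not called may still differ.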

Other observations

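Single primer pairs far apart held a sizeable part of the counts. Of X primer pairs over 500 kb apart, 329 had a mean of at least 50 CPM in the 4 XiteC libraries. They held 7.15% and 8.31% of all counts in XiteC-del, 10.1% and 8.06% in XiteC-inv, 8.88% in WT replicate 1, and 2.26% in WT replicate 2, whose code is B101. Of these pairs 156 were over 5-fold lower in both B101 libraries than in every XiteC library. The pairs were picked by their level in the XiteC libraries, all with the code B100. Part of this deficit was therefore set in advance. Of the 4 pairs called higher outside the deleted stretch, FOR_723 with REV_1396, 1918 kb apart, gave 5919 and 6168 CPM in XiteC-del, 7816 and 7350 CPM in XiteC-inv, 5657 CPM in WT replicate 1, 1147 CPM in WT replicate 2 and 1443 CPM in the other B101 library, XiteE-inv replicate 2 (log2 fold change 0.33, SE 0.07, adjusted p = 0.0139, edgeR). Another, FOR_625 with REV_763, 416 kb apart and both right of the interval, gave 0.0472 and 0 CPM in XiteC-del, 11.6 and 5.60 CPM in XiteC-inv, and 6.60 and 5.22 CPM in WT. It was low in XiteC-del alone. What sets these pairs apart was not tested.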
